A study of Mus musculus with 10 samples.

Results

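The Nkx2 and Nkx6 genes encode homeodomain transcription factors of the NK class, and 10 of them were examined for H3K27me3, a repressive histone mark, in fetal liver hematopoietic stem cells. The members were chosen by name (Nkx2-1, Nkx2-2, Nkx2-3, Nkx2-4, Nkx2-5, Nkx2-6, Nkx2-9, Nkx6-1, Nkx6-2 and Nkx6-3) and make up 10 of 21938 protein-coding genes on the main chromosomes. All 10 were found in the gene models, and 9 had a peak at the promoter or gene body in at least 1 library. The series holds 10 CUT&Tag samples, an assay in which an antibody directs the Tn5 transposase to the protein it binds. The 6 H3K27me3 libraries came from LT-HSCs, the long-term hematopoietic stem cells, sorted from mouse fetal liver at E14.5 as LSKCD48-CD150+ cells. There were 3 libraries from IκBα wild-type (WT) embryos and 3 from IκBα knockout (KO) embryos, and neither group had been treated. The other 4 samples, with antibodies against IκBα, were not analysed here. Per the methods of the study, KO embryos carried the germline targeted allele Nfkbia tm1Bal, so IκBα, the inhibitor of NF-κB, was lost in every cell and not in stem cells alone. WT and KO embryos came from matings of IκBα heterozygotes, some of which also carried a Gfi1:tomato allele, and the labels do not say which libraries held that allele. The study describes the replicates as independent and the embryos as several per genotype, but it counts fewer experiments than a genotype has libraries, and the sources used here do not say which embryos or experiment each library came from. Libraries of a genotype may thus share an experiment, and their spread may be partly technical.

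H3K27me3 is deposited by the Polycomb repressive complex PRC2 and is known to lie over developmental regulators in cells that do not use them. NK homeodomain factors act in patterning of the embryo. Several are placed by Hedgehog signaling in the ventral neural tube, and others are known for heart, lung, thyroid, pancreas, spleen and stomach.

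Libraries differed in the number of peaks. WT replicates 1, 2 and 3 had 4160, 6013 and 1047 peaks over 18.21, 27.84 and 1.90 Mb, and KO replicates 1, 2 and 3 had 4904, 5157 and 2325 peaks over 23.26, 22.98 and 7.61 Mb. Replicates 1 and 2 of both genotypes were read at 75 bp and replicate 3 at 50 bp. The study lists read totals for each library, which were not used for scaling here. WT replicate 3 had the lowest total and KO replicate 3 the next lowest. Peak number had the same order as these totals, except that WT replicate 1 had more reads and fewer peaks than KO replicate 1. The part of depth in the number of peaks was not tested. WT replicate 3 stood apart with the fewest peaks, and the comparisons between genotypes are given with and without it. Peaks are the top 0.5% of enriched blocks within each library, so a gene without a peak fell below the limit of that library and may still carry the mark. Of the markers of the sorted cells, 12 of 12 hematopoietic stem cell and blood genes lacked a promoter peak in all 6 libraries, beside 84.2% of all protein-coding genes. Among markers of other fetal liver cells, 5 of 6 hepatoblast, 3 of 5 erythroid, 4 of 5 endothelial and 4 of 4 macrophage genes had none. With so few genes a list, these counts are no test of the sort.

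Promoter sequence is shown for the member with a promoter peak in the most libraries (Nkx2-2, the first in the list of 4 tied genes) and for the only member with no peak in any library (Nkx2-3), to set a called gene beside an uncalled one. The stretches are the 250 bases before the RefSeq start of each gene on GRCm38.p6, 5′ to 3′ on the strand of the gene, with CpG dinucleotides in capitals. That of Nkx2-2 lies at chr2:147186403-147186652 on the minus strand and that of Nkx2-3 at chr19:43612075-43612324 on the plus strand.
Nkx2-2: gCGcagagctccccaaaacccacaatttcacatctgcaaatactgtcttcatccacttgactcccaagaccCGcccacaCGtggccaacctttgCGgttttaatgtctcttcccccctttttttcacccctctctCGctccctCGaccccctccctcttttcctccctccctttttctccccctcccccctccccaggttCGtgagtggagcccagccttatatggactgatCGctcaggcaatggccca
Nkx2-3: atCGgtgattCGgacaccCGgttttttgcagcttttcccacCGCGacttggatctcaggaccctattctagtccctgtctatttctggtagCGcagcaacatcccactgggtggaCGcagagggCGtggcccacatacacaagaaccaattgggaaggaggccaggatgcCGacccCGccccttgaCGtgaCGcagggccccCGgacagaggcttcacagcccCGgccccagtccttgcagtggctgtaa
The Nkx2-2 stretch holds 8 CpG dinucleotides with a GC content of 56.4%, and the Nkx2-3 stretch holds 14 with a GC content of 60.0%. The Nkx2-2 stretch lies at the inner start of the gene, which was in a peak in 2 of 6 libraries, while its call in 6 libraries rests on the start at 147194243.

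The first question was how many members carried the mark. The promoter window ran from 5 kb before to 100 bp past each annotated TSS (transcription start site), and an overlap of 1 bp with a peak counted. WT replicates 1, 2 and 3 had a promoter peak at 8, 7 and 4 of 10 members, beside 10.6%, 12.9% and 3.46% of all protein-coding genes. KO replicates 1, 2 and 3 had one at 7, 8 and 8 members, beside 12.9%, 12.2% and 8.06% of all genes. The members were marked at a higher share than all genes in every library, and the count was lowest in WT replicate 3. A promoter peak in at least 2 WT libraries was found at 7 members, beside 10.05% of all genes, and in at least 2 KO libraries at 8 members, beside 11.48% of all genes. The WT count was 4 with WT replicate 1 or WT replicate 2 left out, where WT replicate 3 with its 4 called members set the limit. The share of all genes was not taken for that case. The 4 members with a promoter peak in all 6 libraries were Nkx2-2, Nkx2-5, Nkx2-9 and Nkx6-1, whereas 2.65% of all genes were called in all 6. Only Nkx2-3 had no promoter peak in any library, a state found at 84.2% of all genes. With gene bodies counted as well, 6 members had a peak in all 6 libraries, beside 3.47% of all genes, and 1 had none, beside 82.5% of all genes.

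When every library was reduced to its 1047 highest peaks by total signal, so that all had the same number, Nkx2-2, Nkx2-5 and Nkx2-9 were still called at the promoter in all 6 libraries, beside 0.77% of all genes. Nkx6-1 was called in 5 libraries, Nkx2-1 and Nkx6-2 in 4, and Nkx2-4 and Nkx2-6 in 1. The order of the members therefore kept its upper end at equal numbers of peaks, and Nkx2-6 dropped from 4 libraries to 1.

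**Figure D1:**
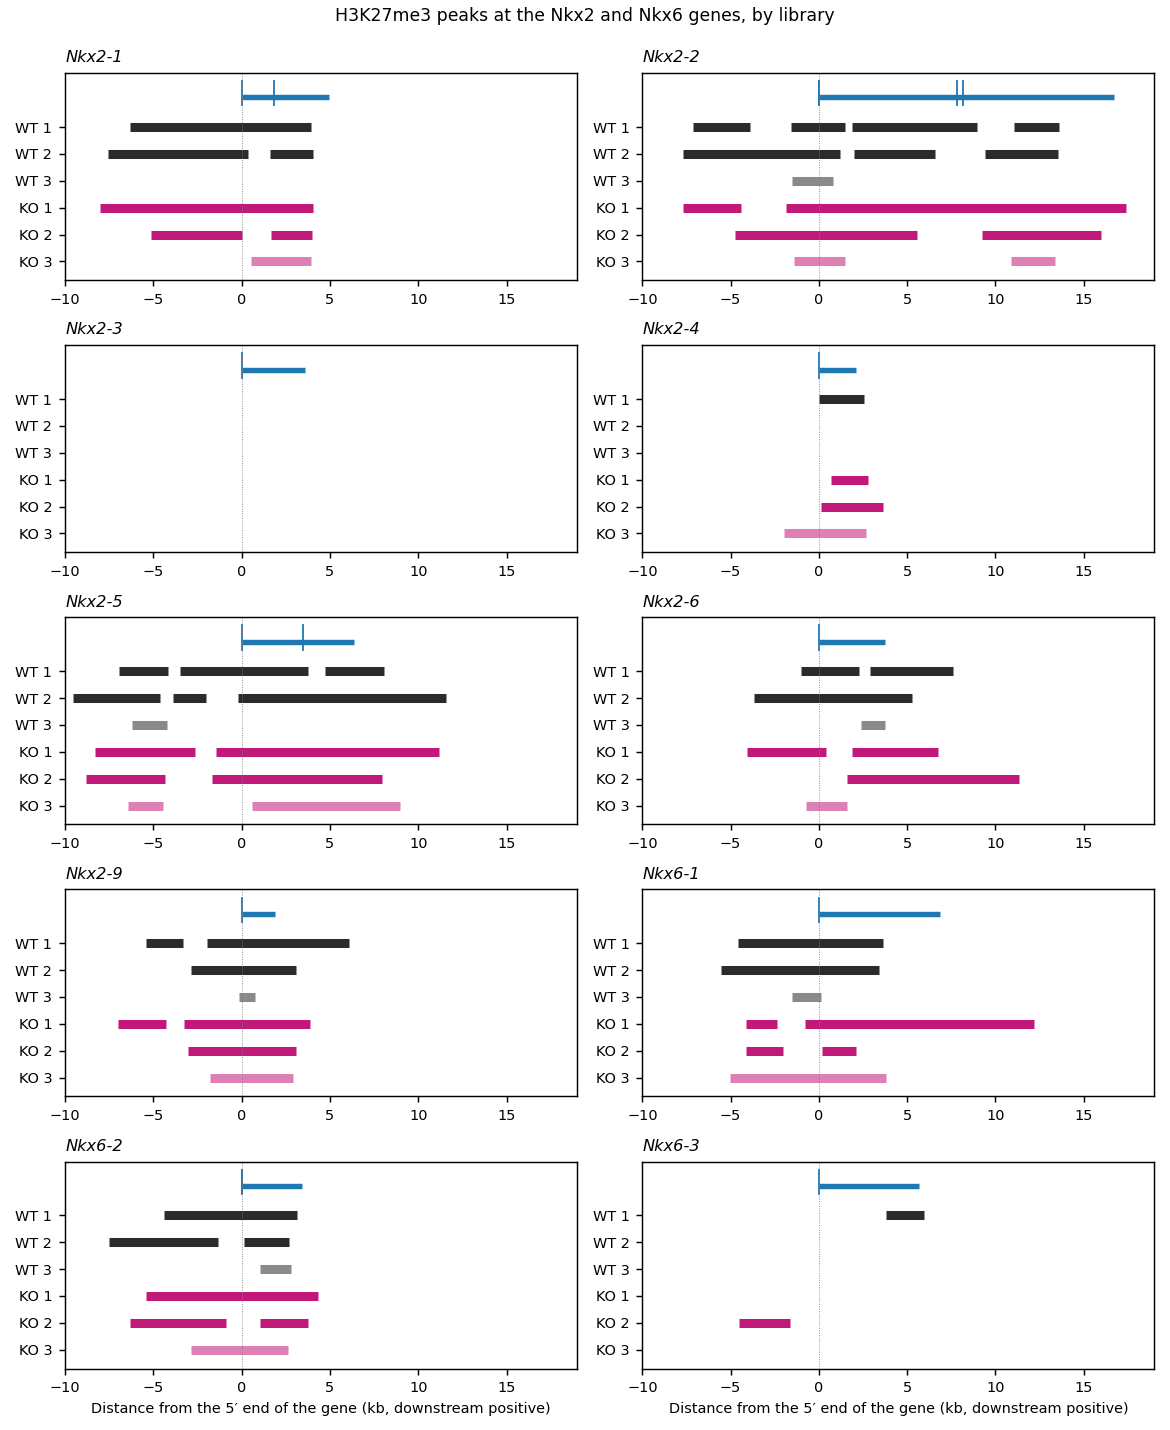
Peaks at each member by library. The x axis is the distance from the 5′ end of the gene in kb with downstream positive, the blue bar is the gene with a tick at each TSS, and the bars below are peaks that overlap the promoter or body in WT (black) and KO (magenta) libraries, with the 50 bp replicate 3 in a lighter shade. Peaks of replicates 1 and 2 often span the TSS and run into the gene, those of WT replicate 3 are short, and Nkx2-3 has none.

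Extent of the mark was measured as the length of the promoter and body windows covered by peaks, 105.3 kb over the 10 members. In WT replicates 1, 2 and 3 the covered length was 61.8, 58.3 and 8.8 kb, and in KO replicates 1, 2 and 3 it was 69.8, 55.6 and 39.5 kb. As a share of the windows, peaks covered 58.7%, 55.4% and 8.31% in WT and 66.3%, 52.8% and 37.5% in KO. WT replicate 3 was far below the other 5 libraries. Over the promoter and body windows of all protein-coding genes, peaks covered 1.25%, 1.81% and 0.153% of the bases in the WT libraries, against 1.59%, 1.52% and 0.588% in the KO libraries. The same shares were taken over promoters alone, since the bodies of genes differ in length. Peaks covered 60.1%, 58.4% and 6.95% of the members' promoter bases in WT replicates 1, 2 and 3, and 62.0%, 50.2% and 31.3% in the KO replicates. Of the promoter bases of all protein-coding genes, they covered 3.06%, 4.08% and 0.419% in the WT replicates, and 3.90%, 3.63% and 1.64% in the KO replicates.

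Next, the genotypes were compared. The number of members with a promoter peak was 6.33 ± 2.08 in WT and 7.67 ± 0.58 in KO (SD, n = 3 each), and the difference of 1.33 members was smaller than the spread between WT libraries. The covered length was 43.0 ± 29.7 kb in WT and 54.9 ± 15.2 kb in KO (SD, n = 3 each), a difference of 12.0 kb, again below the spread. KO minus WT of the same replicate number was -1, 1 and 4 members and 8.0, -2.7 and 30.7 kb for replicates 1, 2 and 3. Most of the difference thus lay in the 50 bp pair, and within the 75 bp libraries it was 2.6 kb. Without WT replicate 3, but with KO replicate 3 kept, the difference in length turned to -5.1 kb and that in called members fell to 0.17. Leaving out WT replicate 3 alone sets 75 bp WT libraries against KO libraries that include a 50 bp one. This holds for the signal differences below as well. With the 1047 highest peaks of every library the difference in called members was 0.33, and in the 75 bp libraries it was 0.

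**Figure D2:**
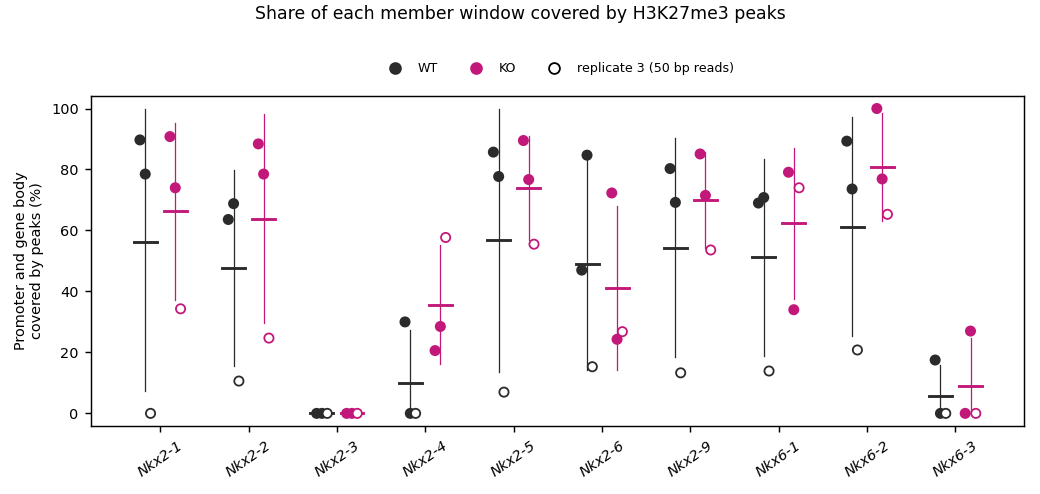
Share of the promoter and body window of each member covered by peaks (y axis, in percent). Points are libraries, filled for 75 bp and open for the 50 bp replicate 3, and lines give the mean with the SD (n = 3, clipped at 0 and 100%). The ranges of WT and KO overlap for 9 members, Nkx2-3 is at 0 throughout, and the open WT point is the lowest WT value or tied with it for every member.

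Nkx2-2, Nkx2-9, Nkx6-1 and Nkx6-2 are genes of the ventral neural tube. Nkx2-2 (ENSMUSG00000027434.11, chromosome 2, 147177546 to 147194243, minus strand) specifies ventral interneurons and pancreatic endocrine cells. Its promoter was called in 6 of 6 libraries, and peaks covered 63.6%, 68.8% and 10.6% of its 21.7 kb window in WT and 88.4%, 78.5% and 24.7% in KO. The merged region, the stretch joined from overlapping peaks of all libraries, was 25.14 kb wide (chr2:147176827-147201965) and took in the whole gene with the antisense genes Nkx2-2os and 6430503K07Rik. Total signal, meaning fragment coverage added up over the peaks of a region, was 67850, 81577 and 6534 in WT against 96745, 66647 and 23619 in KO, unscaled for depth. Both 50 bp libraries were lowest in their genotype, and WT and KO values overlapped. Both start sites at the 5′ end of the gene lay in a peak in 6 of 6 libraries, while the inner start sites at 147186101 and 147186404, next to the stretch printed above, lay in one only in WT replicate 1 and KO replicate 1. In WT replicate 2 and KO replicates 2 and 3 that stretch lay between separate peaks.

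Nkx2-9 (ENSMUSG00000058669.7, chromosome 12, 56611389 to 56613284, minus strand) is expressed along the ventral neural tube. It was also called in 6 of 6 libraries, and its single annotated start site lay in a peak in each of them. Peaks covered 80.3%, 69.2% and 13.3% of its window in WT and 85.1%, 71.5% and 53.6% in KO. Total signal of its main region (9.34 kb, chr12:56607198-56616533) was 34991, 32228 and 3390 in WT against 33006, 30013 and 16743 in KO. All 4 libraries of 75 bp lay close together, within 30013 to 34991. A further region upstream (6.82 kb) was called only in WT replicate 1 and KO replicate 1. The main region also overlapped the antisense gene Gm26973 and Gm38103, and Gm26973 reached the region of Nkx2-1, which lies 74.5 kb from Nkx2-9.

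Nkx6-1 (ENSMUSG00000035187.10, chromosome 5, 101658139 to 101664996, minus strand) acts in motor neuron progenitors and pancreatic beta cells. Its promoter was called in 6 of 6 libraries, with a covered share of 69.0%, 70.8% and 13.9% in WT and 79.1%, 34.0% and 74.0% in KO. Its region of 26.90 kb (chr5:101643616-101670519) overlapped no other gene and ran downstream of Nkx6-1, and total signal was 74384, 76171 and 6540 in WT against 94792, 28904 and 47217 in KO. KO replicate 2 had the lowest KO value, and it alone among the 6 libraries had no peak over the start site. Maximum signal, the highest fragment coverage within the region, was 12, 14 and 16 fragments in WT and 15, 14 and 28 in KO. The values of both replicate 3 libraries stood out, since they were 2.667 and 2.8 times the median maximum of their library in WT and KO, above 1.333 to 1.556 times in the 4 libraries of 75 bp. Within their libraries these peaks ranked at the 99.9th percentile of maximum signal in WT and at the 99.6th in KO.

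In both replicate 3 libraries the stretch of highest coverage lay just upstream of the Nkx6-1 start site, and the bases spanned by the pair of stretches are printed for that reason (chosen after the values were seen). They lie at chr5:101665360-101665475 on GRCm38.p6, minus strand, 364 to 479 bp upstream of the TSS, with CpG dinucleotides in capitals.
Nkx6-1: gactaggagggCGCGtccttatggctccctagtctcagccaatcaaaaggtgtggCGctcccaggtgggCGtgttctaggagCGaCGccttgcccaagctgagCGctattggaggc
The stretch has 7 CpG dinucleotides and a GC content of 61.2%. It was inside a peak of WT replicates 1 and 2 and KO replicate 1 as well, and in a gap between peaks in KO replicate 2. Both libraries with the high maximum had 50 bp reads, the fewest peaks and the lowest read totals. Read length, peak number and depth thus moved together with this value, and their part in it was not tested.

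Nkx6-2 (ENSMUSG00000041309.17, chromosome 7, 139579376 to 139582797, minus strand) acts in the ventral neural tube and in oligodendrocytes. The promoter was called in 2 WT libraries and in all 3 KO libraries, and WT replicate 3 had a peak in the body alone. Peaks covered 89.3%, 73.6% and 20.8% of its window in WT and 100%, 76.9% and 65.3% in KO. Total signal of the 11.84 kb region (chr7:139578471-139590309) was 33758, 40863 and 4203 in WT against 48575, 36806 and 22373 in KO. WT replicate 3 was the lowest on each measure. Both Nkx6-2 start sites lay in a peak in WT replicate 1 and KO replicates 1 and 3, whereas in WT replicate 2 and KO replicate 2 peaks lay on either side of them. The region also reached the protein-coding gene Inpp5a.

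Nkx2-5 and Nkx2-6 are the members best known for the heart and pharynx. Nkx2-5 (ENSMUSG00000015579.5, chromosome 17, 26838664 to 26845009, minus strand) is an early regulator of cardiac progenitors. Its promoter was called in 6 of 6 libraries, and its region was the widest of the members at 31.05 kb (chr17:26831902-26862948), wider than 96.7% of the 718 regions called in all 6 libraries. Peaks covered 85.7%, 77.7% and 6.97% of its window in WT and 89.5%, 76.7% and 55.5% in KO. Total signal came to 75449, 105751 and 4555 in WT and to 114281, 95665 and 48340 in KO. That of WT replicate 3 came from a single peak of 1981 bp that lay wholly upstream of the gene. The other libraries had peaks over the gene as well. The lincRNA genes Gm17382 and Gm20468 lay in the same region.

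Nkx2-6 (ENSMUSG00000044186.10, chromosome 14, 69171802 to 69175518, plus strand) is expressed in pharyngeal endoderm and the outflow tract. It had a peak at the promoter or body in 6 of 6 libraries, but at the promoter only in WT replicates 1 and 2 and KO replicates 1 and 3. Peaks covered 47.0%, 84.7% and 15.3% of its window in WT and 72.3%, 24.3% and 26.8% in KO. Total signal of the 15.39 kb region (chr14:69167714-69183106) was 31877, 34682 and 5075 in WT against 45978, 37657 and 7216 in KO. KO replicate 2 had a wide peak that began inside the gene and ran downstream of it, and WT replicate 3 had a short peak near the 3′ end. The antisense gene 1700092C10Rik overlapped the region.

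Nkx2-1 and its close relative Nkx2-4 are genes of the ventral forebrain, and Nkx2-1 also acts in thyroid and lung. Nkx2-1 (ENSMUSG00000001496.15, chromosome 12, 56531958 to 56536908, minus strand) had a promoter peak in 5 libraries and none in WT replicate 3. Peaks covered 89.7%, 78.5% and 0% of its window in WT and 90.8%, 74.0% and 34.3% in KO. Its region of 12.06 kb (chr12:56532851-56544909) had a total signal of 45950 in WT replicate 1, 45387 in WT replicate 2, and 47799, 35593 and 13522 in the KO libraries. In KO replicate 3 the peak covered the inner start site at 56535106 and not the outer one at 56536908.

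Nkx2-4 (ENSMUSG00000054160.2, chromosome 2, 147083316 to 147085445, minus strand) lies 92.1 kb from Nkx2-2 and was marked in fewer libraries. It had a promoter peak in WT replicate 1 and KO replicates 2 and 3, and a peak in the body alone in KO replicate 1. The peak of KO replicate 2 stopped 95 bp inside the gene and that of WT replicate 1 just past the start site. Both of these calls rest on a short overlap with the promoter window. Peaks covered 30%, 0% and 0% of its window in WT and 20.6%, 28.5% and 57.7% in KO. Total signal of its region of 5.62 kb (chr2:147081805-147087428), was 9448 in WT replicate 1 and 8343, 13126 and 15382 in KO. KO values lay on both sides of the single WT value.

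Nkx2-3, Nkx6-3 and the gut close the list. Nkx2-3 (ENSMUSG00000044220.13, chromosome 19, 43612325 to 43615892, plus strand), known for the spleen and the vessels of the gut, had no peak at promoter or body in any of the 6 libraries. Nkx6-3 (ENSMUSG00000063672.7, chromosome 8, 23153269 to 23158948, plus strand), known for the stomach, had a promoter peak of 2887 bp with a total signal of 11091 in KO replicate 2, in a region shared with Ank1 and the antisense gene Gm15816. It also had a body peak of 2139 bp with a total signal of 6690 in WT replicate 1. Peaks covered 17.5% of the window in WT replicate 1, 27% in KO replicate 2 and 0% in the other 4 libraries, and no peak lay on its start site.

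To set the members side by side despite unequal depth, the mean coverage per covered base of each region was divided by the median of that value over all peaks of the library. The ratio was 1.244 ± 0.192 at Nkx2-9, 1.237 ± 0.162 at Nkx6-1, 1.156 ± 0.137 at Nkx6-2, 1.129 ± 0.073 at Nkx2-2, 1.112 ± 0.214 at Nkx2-6 and 1.068 ± 0.152 at Nkx2-5 (mean and SD over 6 libraries). It was 1.142 ± 0.116 over 5 libraries at Nkx2-1 and 0.964 ± 0.066 over 4 at Nkx2-4. Neighbours in this order differed by less than the larger of their SDs, and of these 8 regions, each called in at least 4 libraries, Nkx2-4 lay below the typical peak on average. Members differed more in total signal than in mean coverage. Total signal was summed over all peaks of a region and divided by the median of single peaks. The ratio is therefore raised by construction where a wide region joins several peaks. Total signal relative to the library median was 5.990 ± 2.797 at Nkx2-5, 4.657 ± 2.237 at Nkx2-2 and 4.530 ± 2.174 at Nkx6-1, the 3 regions wider than 25 kb. It was 2.970 ± 0.995 at Nkx2-1, 2.581 ± 0.908 at Nkx6-2, 2.245 ± 1.053 at Nkx2-6, 2.087 ± 0.754 at Nkx2-9 and 0.970 ± 0.385 at Nkx2-4. The SDs were smaller without the replicate 3 libraries, by little at Nkx6-1. In the 75 bp libraries alone, relative total signal was 7.558 ± 1.027 at Nkx2-5, 6.038 ± 0.784 at Nkx2-2, 5.280 ± 2.026 at Nkx6-1, 3.388 ± 0.398 at Nkx2-1, 3.090 ± 0.332 at Nkx6-2, 2.899 ± 0.309 at Nkx2-6 and 2.530 ± 0.218 at Nkx2-9 (SD, n = 4). Mean coverage per base in these libraries ran from 0.997 at Nkx2-4, in 3 libraries, to 1.280 at Nkx2-9. Of the 718 regions called in all 6 libraries, 64 were 25 kb or wider and the median was 9.88 kb. Regions at Nkx2-2 and Nkx6-1 were wider than 91.2% and 93.3% of them, and that at Nkx2-9 than 45.3%.

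**Figure D3:**
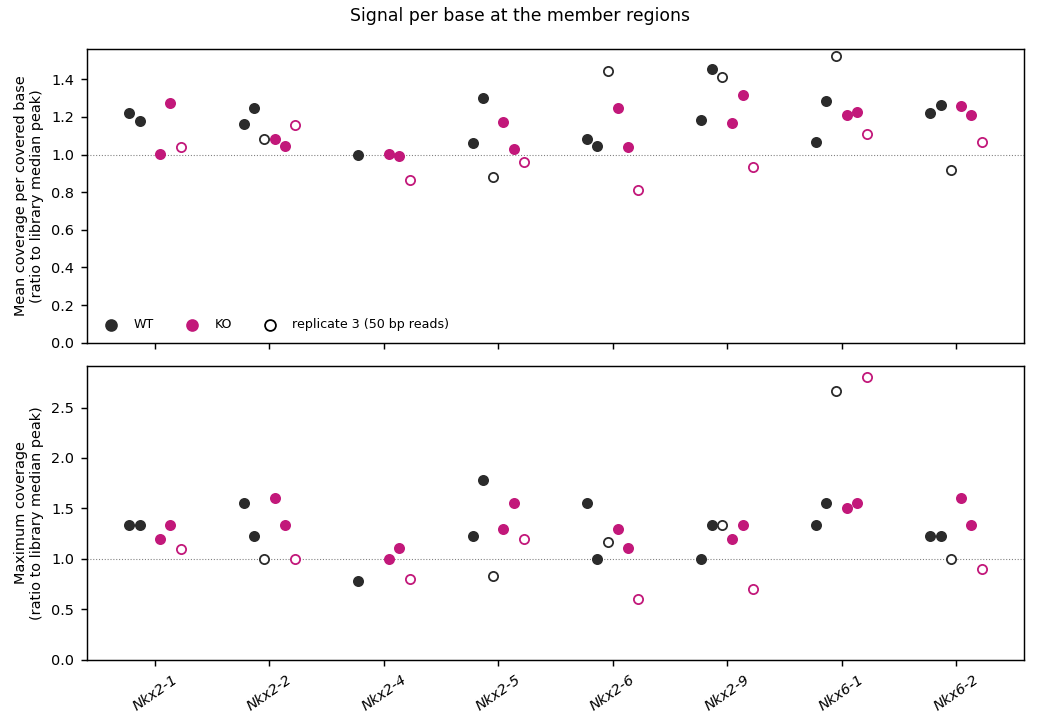
Mean coverage per covered base (top) and maximum coverage (bottom) of the 8 member regions called in at least 4 libraries, each as a ratio to the median peak of the library (dotted line at 1). Points are libraries, filled for 75 bp and open for 50 bp. Mean coverage stays within a narrow band around and above 1, and the open points of Nkx6-1 at 2.667 (WT) and 2.8 (KO) are the highest maxima.

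Signal was then compared between KO and WT at the regions called in all 6 libraries, of which 6 belonged to members. Log2 total signal was centred on the median of the tested regions in each library and fitted with limma over all 718 regions. No region passed an adjusted p of 0.05 (0 of 718, 0%), and at an unadjusted p under 0.05 there were 4 higher (0.557%) and 4 lower (0.557%) in KO, none of them a member. At Nkx2-5 the centred log2 signal was 1.5, 1.63 and -0.04 in WT against 1.64, 1.69 and 1.59 in KO, a log2 difference of 0.61 ± 0.44 (SE, limma adjusted p = 0.993, 95% interval -0.37 to 1.59). Its 3 KO values and 2 of its WT values lay close together, and WT replicate 3 lay apart. Without WT replicate 3 the difference was 0.09 ± 0.30 (SE), and in the 75 bp libraries it was 0.12 ± 0.31 (SE). At Nkx2-6 the values were 0.26, 0.02 and 0.12 in WT and 0.33, 0.34 and -1.15 in KO, a log2 difference of -0.29 ± 0.43 (SE, interval -1.24 to 0.65). Here KO replicate 3 was the low library, and without it the difference was 0.22.

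At Nkx6-1 the centred values were 1.48, 1.15 and 0.49 in WT and 1.37, -0.04 and 1.56 in KO, with a log2 difference of -0.08 ± 0.46 (SE, interval -1.11 to 0.95). KO replicate 2 was low in this case. The difference was 0.43 without KO replicate 2, -0.34 ± 0.49 (SE) without WT replicate 3 and -0.64 ± 0.51 (SE) in the 75 bp libraries. Nkx6-2 had 0.34, 0.25 and -0.15 in WT and 0.41, 0.31 and 0.48 in KO, a log2 difference of 0.25 ± 0.31 (SE, interval -0.43 to 0.94). For Nkx2-2 the log2 difference was 0.01 ± 0.37 (SE, interval -0.81 to 0.84) and for Nkx2-9 it was 0.03 ± 0.33 (SE, interval -0.71 to 0.77), and the groups overlapped at both. Without WT replicate 3 the differences were -0.25 at Nkx2-2, -0.17 at Nkx2-9, 0.11 at Nkx6-2 and -0.29 at Nkx2-6. The limma adjusted p was 0.993 for each of the 6 regions. No member had all KO values above or below all WT values, beside 2.23% of the 718 regions above and 4.46% below. By replicate number, KO was above WT in each pair at Nkx2-5 and Nkx6-2, and the pairs were of mixed sign at Nkx2-2, Nkx2-6, Nkx2-9 and Nkx6-1. The share of all regions with pairs of one sign was not counted. The intervals reached from -1.24 at Nkx2-6 to 1.59 at Nkx2-5, and changes within them were not detectable with these libraries.

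Nkx2-1 and Nkx2-4 were not called in all 6 libraries. In the fit to the 75 bp libraries alone (2555 regions), Nkx2-1 had a log2 difference of -0.26 ± 0.33 (SE), and in the fit without WT replicate 3 (1621 regions) one of -0.45 ± 0.33 (SE). In the fit to regions called in at least 3 libraries (3626 regions), where missing libraries were set to their smallest called signal, it had 0.12 and Nkx2-4 had 0.53 ± 0.47 (SE), with WT replicates 2 and 3 imputed for Nkx2-4. Neither passed the limma test, for which the adjusted p of members was at least 0.907 over all alternatives.

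**Figure D4:**
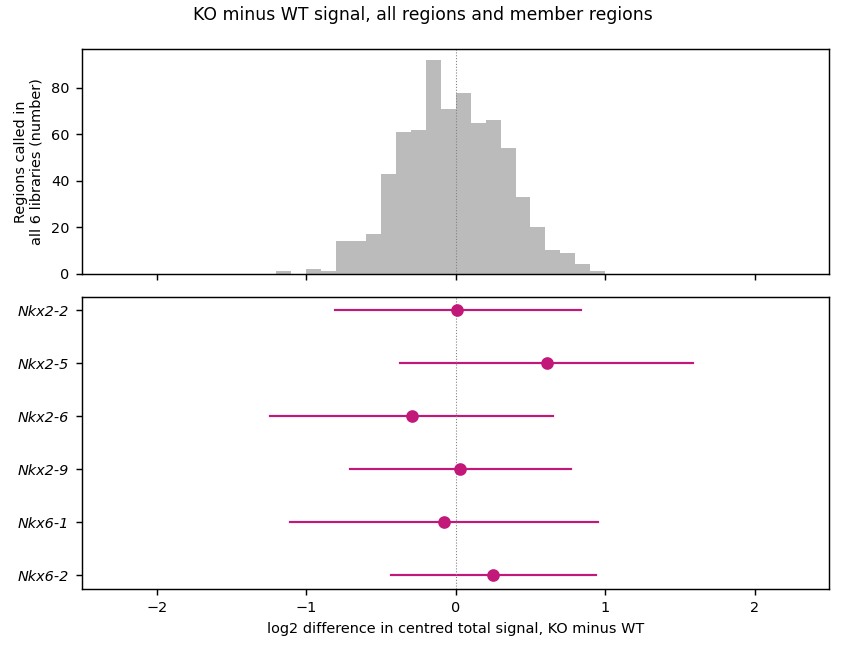
KO minus WT log2 difference in centred total signal. The top panel counts the 718 regions called in all 6 libraries by difference, and the lower panel gives the 6 member regions with 95% intervals. Every member interval includes 0, and Nkx2-5 (0.61) lies farthest from it.

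H3K27me3 is known to favour CpG-rich promoters, so CpG content was compared with the calls. The CpG ratio, observed over expected CpG in the 500 bp either side of the start site, was 0.98 at Nkx6-2, 0.93 at Nkx2-4, 0.86 at Nkx2-1, 0.85 at Nkx6-1, 0.67 at Nkx2-2 and 0.62 at Nkx2-5 (the highest where a gene has several sites). These 6 genes met the limits for a CpG-rich promoter, a ratio of at least 0.6 and a GC content of at least 50%. The other 4 did not, with 0.57 at Nkx2-3, 0.53 at Nkx2-9, 0.37 at Nkx2-6 and 0.26 at Nkx6-3. Calls did not follow this order gene by gene. In the order given, the CpG-rich members had a promoter peak in 5, 3, 5, 6, 6 and 6 libraries, and the others in 0, 6, 4 and 1. Over all genes, 14.2% of 11150 CpG-rich and 5.71% of 10788 other promoters had a peak in at least 2 WT libraries, and 16.3% and 6.52% in at least 2 KO libraries. The share was highest at ratios of 0.5 to 0.6, with 17.6% in WT and 20% in KO, the bin that holds both Nkx2-3 and Nkx2-9.

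**Figure D5:**
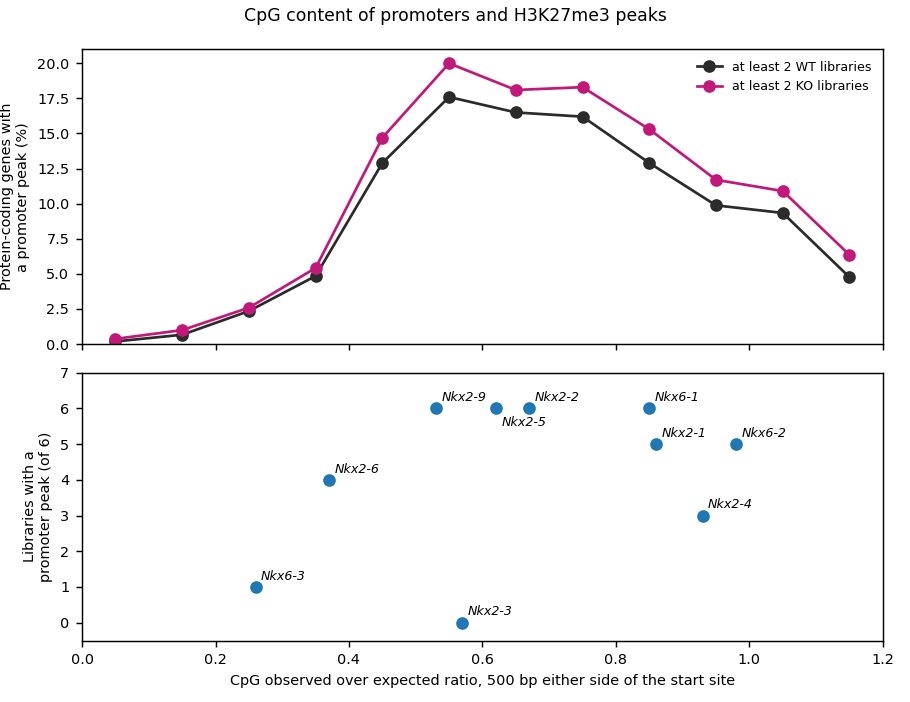
Promoter peaks and CpG content. The top panel gives the share of protein-coding genes with a promoter peak in at least 2 WT or 2 KO libraries by CpG ratio, in bins of 0.1, and the lower panel the number of libraries with a promoter peak for each member against its CpG ratio. Nkx2-3 and Nkx2-9 have similar ratios (0.57 and 0.53) and 0 and 6 libraries.

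Genes that work with the members were examined from fixed lists, by counts of promoter peaks. Of 13 ventral neural tube and Hedgehog genes, 11 were called in at least 2 WT and 12 in at least 2 KO libraries, with Dbx1 and Olig2, progenitor factors of the neural tube, among those called in all 6 and Dbx2 and Gli2 among those with the fewest calls (3 libraries). Of 10 heart partners, 8 were called in at least 2 libraries of each genotype. Gata4 and Gata6, both zinc finger factors of the early heart, were among those called in all 6 libraries, and Mef2c and Srf, which act in many tissues, in none. Of 14 lung, thyroid and pancreas partners, 10 were called in at least 2 WT and 11 in at least 2 KO libraries, with Mafa and Mnx1 in all 6 and Hhex and Tg in none. Of other NK genes, Nkx1-1 and Nkx1-2 were called in all 6 libraries and Nkx3-2 in 5. The median number of libraries with a promoter peak was 5 for the members and 5 for each of the lists of 13, 10 and 14 genes, beside 0 for all protein-coding genes.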

How the data were processed

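CUT&Tag for H3K27me3 was analysed in 6 libraries of 10 samples, grouped by the genotype in their titles. The authors trimmed reads (Trim Galore 0.6.6), aligned them to GRCm38 (Bowtie2 2.4.4), removed multi-mapped and duplicate reads, and called peaks per library with SEACR 1.3, stringent, top 0.5%, without IgG control. The deposited files give total and maximum signal per peak, unscaled for depth. The read totals that the study lists were not used for scaling, and libraries were compared through their peaks, with a median maximum signal of 6 to 10 fragments. A blacklist was applied per the file names, and which one is not given in the sources used here.

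Gene models were GENCODE M21 and sequences RefSeq on GRCm38.p6. The promoter table lacks Nkx2-6 and Nkx6-3. Overlapping peaks of the 6 libraries were merged into 6953 regions. Signal was compared with limma 3.58.1 in R 4.3.3 with Benjamini-Hochberg adjustment, and the remaining steps used Python 3.11.15. The limma step was also run on simulated data with independent noise of equal SD in every library of a region. The real libraries did not vary independently, so that run cannot show how the fit behaves on them. Members, lists and tests were chosen with earlier results of these data known. Counts and covered length summed over members are given with their SD and without a p-value. All members were to be named, and of each list at most 4 genes with the most or fewest calls, with ties in alphabetical order. Same-numbered WT and KO libraries deviated together over the 718 regions called in all 6 (r of 0.28, 0.31 and 0.48) and were taken as pairs, with the replicate number as a block in one alternative fit. WT replicate 2 with KO replicate 1 (0.27) and WT replicate 1 with KO replicate 2 (0.12) also correlated, and 75 bp with 50 bp libraries correlated negatively. Results for some genes of the lists are not reported here.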

Additional observations from a re-analysis of the deposited data

How the results depend on the processing

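Alternatives were the 1047 highest peaks of every library, peaks above the median signal, an overlap of 500 bp, other promoter definitions, 75 bp libraries alone, each library left out, and for signal another scaling, measure, region set, array weights and the replicate block. No member region passed the limma threshold under any of 13 alternatives (adjusted p from 0.907 to 1), and the replicate block changed no call, with 0 members past the threshold. In this balanced design the block leaves every difference of means as it is (1.33 members, 12.0 kb, 0.61 at Nkx2-5) and bears only on its error. Leaving out single libraries gave 0.17 to 2.17 members and -5.1 to 21.42 kb, the lowest of each without WT replicate 3. Members called in at least 2 WT libraries ranged from 4 to 7 when a library was left out, with 4 without WT replicate 1 or WT replicate 2 and 7 without WT replicate 3, which had calls at 4 members. The difference in called members was 0.33 with equal numbers of peaks and 0 in the 75 bp libraries.

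Of 78 values for single regions, 20 had the opposite sign. Scaling by summed signal moved the median of all regions from -0.02 to -0.26 and shifted the members alike, which gave -0.23 at Nkx2-2 and -0.21 at Nkx2-9. Nkx2-2 gave -0.11 for mean signal per base and -0.02 with array weights, and -0.25 to 0.28 when a library was left out. Nkx2-5 gave -0.05 for mean signal per base, and 0.09 (without WT replicate 3) to 0.91 when a library was left out. Nkx2-6 gave 0.21 in the 75 bp libraries and 0.02 with array weights, and -0.54 to 0.22 when a library was left out. Nkx2-9 gave -0.26 for maximum signal, -0.29 for mean signal per base, -0.21 in the 75 bp libraries and -0.15 with array weights, and -0.17 to 0.26 when a library was left out. Nkx6-1 gave 0.05 for maximum signal and 0.15 for regions called in at least 3 libraries, -0.64 in the 75 bp libraries, and -0.35 to 0.43 when a library was left out. Nkx6-2 kept its sign throughout (0.01 to 0.47). The causes of the other reversals were not tested.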

Other observations

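The 1000 bases upstream of the 16 annotated start sites of the members were searched on both strands for short core sequences. The GLI core GACCACCCA, bound by the transcription factors of the Hedgehog pathway, occurred at 0 of 16 sites, beside 0.816% of 93513 start sites of all protein-coding genes. The NKX2 core TCAAGTG occurred at 4 sites of 3 members, Nkx2-1, Nkx2-2 and Nkx2-6, beside 10774 of 93513 sites of all protein-coding genes. The variant TTAAGTG occurred at 1 site, at Nkx6-1, beside 11.1% of all sites. The NKX6 core TTAATTA occurred at 2 sites, at Nkx2-2 and Nkx6-1, beside 12.5% of all sites. The 3 AT-rich or NKX2 cores are too short and too common in this window for a match to be read as a binding site.

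Among all start sites of genes with a promoter peak, a peak covered the start base itself at 14 of 14 member sites in WT replicate 1 and 13 of 13 in KO replicate 1. It did so at 9 of 13 and 7 of 14 in replicate 2 of WT and KO, and at 4 of 8 and 10 of 14 in replicate 3. The share over all start sites of protein-coding genes with a promoter peak was 42.9% to 53.5%. A called gene entered with every annotated start site, also those without a peak in their own promoter window. Several of these sites share a gene, so they are not independent of each other.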
